A study of Gallus gallus with 20 samples.

Results

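A module of 281 genes was measured at lower levels in ileal tissue of 4 broiler chickens, A4, A6, A7 and D7, than in that of 6 others, A3, A5, D2, D3, D4 and D5. The members were chosen from the counts themselves. A gene belonged to the module if its mean over the 10 birds was from 5 to under 1000 CPM (counts of the gene scaled to a common total per bird), if every one of the 4 birds lay below every one of the 6, and if the mean CPM of the 4 divided by that of the 6 was from 0.40 to 0.75. This held for 281 of 24356 genes in the table and for 2.61% of the 10761 genes in that CPM range. The contrast between these sets of birds is therefore a description throughout, and no test is given for it.

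The birds were broilers (Gallus gallus) of 35 days, and pieces from the middle of the ileum, where the small intestine ends, gave total RNA for strand-specific libraries depleted of ribosomal RNA. Of the 10 birds, 5 were controls (A3, A4, A5, A6 and A7) and 5 belonged to a group named for avilamycin (D2, D3, D4, D5 and D7), an antibiotic against Gram-positive bacteria that has been fed as a growth promoter. All birds shared age and tissue, and each gave 2 technical libraries. The labels give neither the dose, the duration of feeding nor the pens, and they do not record the sex or the strain of the birds. The bird was the unit of replication.

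The module had been named for the dosage of the Z chromosome. In birds, males carry a pair of Z chromosomes, whereas females carry a Z and a W. Birds lack a chromosome-wide mechanism that evens out the output of the Z between the sexes, and compensation varies from gene to gene, so that many Z-linked genes have more RNA in males. In the deposited table neither symbols nor chromosomes accompany the gene IDs, and the reference table matched 0 of them, so the position of the members on the Z was not tested here and the module is called by its rule. For the same reason neither the roles of the members, nor lists of Z-linked genes, nor markers of ileal cell types can be given. In bulk tissue, fewer cells of a type and less RNA per cell cannot be told apart.

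Bird totals ran from 35470766 to 45371754 counts in the 4 birds and from 31130907 to 44961552 in the 6, so these ranges overlapped. The part of depth was not tested. The lowest count of any member in any bird was 109. Counting error alone gives a median coefficient of variation (CV, the SD as a percent of the mean) of 3.28% for members in the 4 birds and 2.67% in the 6.

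The members together held 0.998% to 1.08% of all counts in the 4 birds and 1.60% to 1.71% in the 6. Their summed level was 10821 CPM in control A4, 9978 CPM in control A6, 10199 CPM in control A7 and 10475 CPM in avilamycin bird D7. In the 6 birds the lowest sum was 15990 CPM, the median 16308 CPM and the highest 17144 CPM. The sums thus fell into separate ranges, and avilamycin bird D7 lay inside the range of the control birds of its set. The mean of the 4 was 10368 ± 364 CPM (SD, n = 4) and that of the 6 was 16369 ± 402 CPM (SD, n = 6), a ratio of 0.633. Over the 8 single libraries of the 4 birds the sums ran from 9857 to 10835 CPM. Over the 12 libraries of the 6 they ran from 15851 to 17196 CPM. Members were chosen on the summed libraries of each bird, so this is no independent check.

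Single members followed the sum closely. Relative to its mean in the 6 birds, the median member stood at 0.646 in A4, 0.608 in A6, 0.611 in A7 and 0.628 in D7. The same median was 0.999 in A3, 0.997 in A5, 1.05 in D2, 0.974 in D3, 0.981 in D4 and 0.993 in D5. The interquartile range over members was 0.540 to 0.669 in A6, the lowest of the 4 birds, and 0.581 to 0.725 in A4, the highest. No interquartile range of the 4 birds reached that of any of the 6, the lowest of which began at 0.924 in D3. The rule put every member lower in the 4 birds, so this separation follows from the choice.

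**Figure D1:**
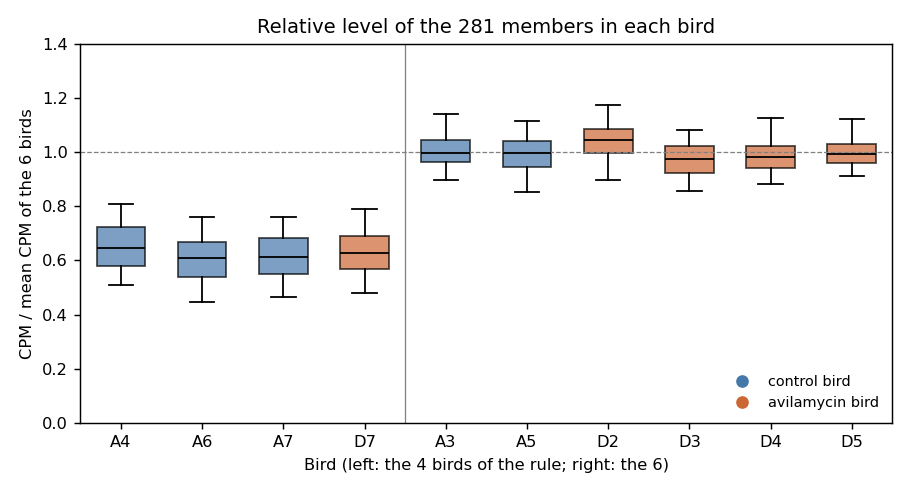
Level of each of the 281 members in each bird, as its CPM divided by its mean CPM in the 6 birds; boxes show quartiles and median over members, whiskers the 5th to 95th percentiles, and colours the feed group. The medians of A4, A6, A7 and D7 lie between 0.608 and 0.646 and those of the other birds between 0.974 and 1.05, a separation that the choice of members fixes.

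The ratio between the sets varied from member to member over most of the interval that the rule allows. The lowest ratio was 0.402 and the highest 0.747, with a median of 0.623 and quartiles of 0.567 and 0.689. A ratio under 0.50 was found for 10 members, one from 0.50 to under 0.60 for 100, one from 0.60 to under 0.70 for 111 and one from 0.70 to 0.75 for 60. The lower bound of the rule therefore removed nothing, since 0 genes without overlap had a ratio under 0.40. The upper bound cut through a continuous distribution, and 76 further genes lay lower in all 4 birds at ratios over 0.75. Over all genes in the CPM range, the median ratio was 1.01 and the quartiles were 0.952 and 1.06.

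Genes that did not overlap between the sets were mostly lower in the 4 birds. Such genes numbered 357, or 3.32% of the genes in the CPM range, against 73, or 0.678%, that were higher in all 4. The mirrored rule, with every one of the 4 birds above the 6 and the inverse ratio from 0.40 to 0.75, was met by 5 genes, or 0.0465%. These 5 had means from 7.62 to 64.9 CPM and ratios of the 4 to the 6 from 1.36 to 2.32. Of the 73 genes higher in all 4, 21 had ratios over 1.7, and the bound of 0.40 on the inverse left most of these out. The bound removed none of the lower genes, so the counts of 281 and 5 overstate the difference between the directions. Without the demand for separation, 402 genes had a ratio from 0.40 to 0.75 and 125 had the inverse. Of the 402, 121 were left out of the module because at least 1 bird overlapped.

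**Figure D2:**
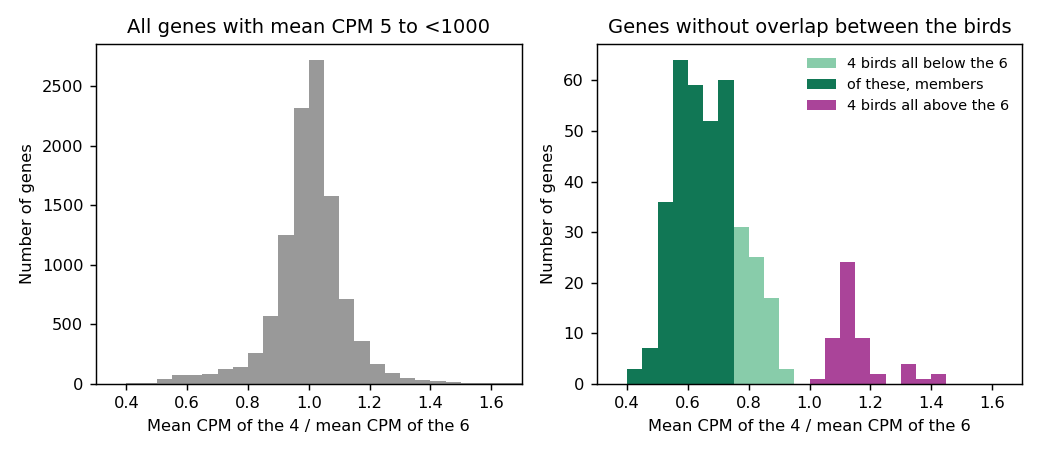
Ratio of the mean CPM of birds A4, A6, A7 and D7 to that of the 6 others, in steps of 0.05, for all 10761 genes in the CPM range (left) and for genes without overlap between the birds (right). The genes lower in the 4 birds spread from 0.402 upwards, past the bound of 0.75, while those higher in the 4 are fewer; 21 of the latter lie beyond the right edge at ratios over 1.7.

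At the thresholds the members resembled genes just outside. The member with the highest ratio had 0.747 and the nearest gene beyond the bound had 0.753. The member with the lowest mean had 5.02 CPM and the nearest gene under the bound that met the other conditions had 4.89 CPM. The member with the narrowest gap had 31.6 CPM in the highest of the 4 birds and 32.2 CPM in the lowest of the 6, and the nearest gene that failed had 56.3 and 55.8 CPM. Under 5 CPM, 58 genes met the conditions on overlap and ratio, and from 1000 CPM upwards 0 genes did.

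For most members the gap between the sets was wide, which the bounds of the rule favour. The highest of the 4 birds divided by the lowest of the 6 had a median of 0.769 over members and was under 0.90 for 246, under 0.80 for 169 and under 0.70 for 76. The rule used summed libraries, and 240 of the 281 members also kept all 8 libraries of the 4 birds below all 12 libraries of the 6. In the other 41 at least 1 library overlapped. Applied to the first library of each bird alone, the rule gave 270 genes, 259 of them members, and applied to the second alone it gave 265, 253 of them members. The members were chosen on the sum of these same libraries, so the shared genes are no independent support.

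The member with the lowest ratio, 0.402, had 34.7 CPM in A4, 35.2 CPM in A6, 28.5 CPM in A7 and 30.3 CPM in D7. In the 6 birds the same gene ranged from 72.6 CPM in D4 to 88.2 CPM in A3. Its highest value in the 4 birds was 0.484 of its lowest in the 6, the widest gap of any member. CPM are not scaled by gene length here, so they rank genes by their share of reads and not by transcripts.

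ENSGALG00000015082 had the highest mean of all members, 500.4 CPM. It was at 344 CPM in A4, 340.3 CPM in A6, 303 CPM in A7 and 330.2 CPM in D7, and in the 6 birds at 562 CPM at the lowest, 606 CPM at the median and 700.4 CPM at the highest. The avilamycin bird among the 4 lay within the range of the 3 control birds, and D2 was the highest of the 6. The means were 329 ± 18.5 CPM (SD, n = 4) and 615 ± 46.4 CPM (SD, n = 6), a ratio of 0.536. ENSGALG00000015083, with the second highest mean, was at 296 CPM in A4, 266 CPM in A6, 281 CPM in A7 and 285 CPM in D7. In the 6 birds it ran from 404 CPM in A3 through a median of 432 CPM to 468 CPM in D2. Its ratio of 0.647 was nearer to 1 than that of its neighbour in rank, although both were separated in every bird.

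**Figure D3:**
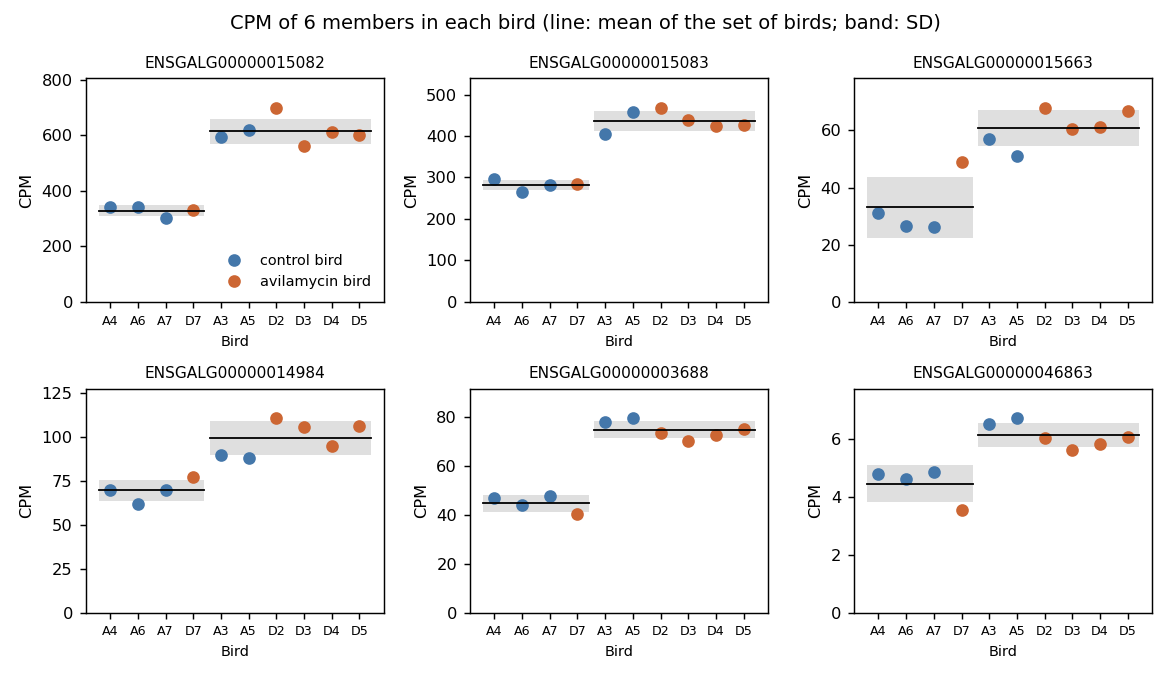
CPM in each bird for the 2 members with the highest mean, the 2 with the smallest p for higher and the 2 with the smallest p for lower values in avilamycin birds; points are birds, coloured by feed group, lines the means and bands the SD of the 4 birds (left) and of the 6 (right). ENSGALG00000015082 lies between 303 and 344 CPM in the 4 birds and between 562 and 700.4 CPM in the others.

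Members were found in each of 4 classes of abundance, the highest at a mean of 500.4 CPM. They made up 2.30% of genes with a mean from 5 to under 20 CPM (86 of 3736), 3.25% of those from 20 to under 50 CPM (108 of 3322), 2.73% of those from 50 to under 100 CPM (55 of 2017) and 1.90% of those from 100 CPM upwards (32 of 1686). The median ratio of members in these classes was 0.583, 0.630, 0.618 and 0.669. Across the 281 members, Spearman's rho between mean CPM and ratio was 0.196. Counting error is larger for scarce genes and the rule demands that all birds separate, so the rule itself may act on this value, which was not tested.

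Within a set of birds the members varied less than other genes at the median, which the demand for separation favours. Their median CV was 8.73% within the 4 birds and 7.101% within the 6. For the other genes in the CPM range the same medians were 10.6% and 10.1%. Between the 2 libraries of a bird the median CV was 4.73% for members and 4.53% for the other genes.

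Single members departed from this evenness. The steadiest member in the 4 birds had a CV of 0.874%, with 30.6 CPM in A4, 30.9 CPM in A6, 30.3 CPM in A7 and 30.3 CPM in D7. It was also even in the 6 birds, where it ran from 49.2 CPM in D3 to 54.6 CPM in D5. The most variable member in the 4 birds had a CV of 41.1%, with 93.6 CPM in A4 and 91.9 CPM in A7 but 45.8 CPM in A6 and 42.4 CPM in D7. This gene nearly overlapped between the sets, since A5 had 97.0 CPM, and D4 stood highest with 164 CPM. The most variable member in the 6 birds had a CV of 36.9%, with 20.0 CPM in D2 and 22.0 CPM in D5 but 8.97 CPM in D3, against 6.32 to 8.51 CPM in the 4 birds.

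Birds of a set differed in how often they held its extreme. Among the 4, A4 was the highest bird for 40.9% of members and A6 the lowest for 37.7%, against 35.2% and 29.2% of the other genes in the CPM range. D7 was the lowest of the 4 for 21.4% of members and for 36.1% of other genes. Among the 6, D2 was the highest for 40.6% of members and 26.5% of other genes, and the lowest for 5.34% and 20.1%. The higher level of D2 was thus spread over many members.

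The module was set beside genes measured almost only in the same 4 birds. Of 24356 genes, 19 were above 1 CPM in each of the 4 birds and under 0.1 CPM in each of the 6. Together they made up between 155 and 170 CPM in each of the 4, and between 0.193 and 0.659 CPM in each of the 6. A count of the reverse pattern is not given here. The members had a mean sum of 10368 CPM in the 4 birds and of 16369 CPM in the 6. Both lists were chosen on this contrast, by unlike bounds and with unlike numbers of genes. The sizes of their differences therefore follow in part from the choice and are not compared.

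The numbers in the gene IDs, which the rule did not use, were unevenly shared by the members. IDs numbered from 14000 to 15999 covered 687 genes in the CPM range, of which 99 were members, or 14.4%, against 182 of 10074 genes with other numbers, or 1.81%. This range of numbers was chosen after the members were known, so the size of the contrast follows in part from that choice, and no test is given. Members made up 15.0% of genes numbered 14000 to 14999 and 13.9% of those numbered 15000 to 15999. Among blocks of 1000 numbers with over 300 genes in the range, 4 blocks, with 1500 such genes together, held no member. ENSGALG00000015082 and ENSGALG00000015083, the members with the highest means, carry adjacent numbers.

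Smaller blocks were also counted. Of 401 blocks of 100 numbers with at least 10 genes in the CPM range, 300 held no member. In 8 blocks, picked by this share, at least 20% of genes were members, and they held 84 of the 281 members, or 29.9%, with 2.77% of the genes in the range. The highest shares were 10 of 23 genes, or 43.5%, from number 200 to 299 and 18 of 44 genes, or 40.9%, from 14700 to 14799. Small blocks give more extreme shares in any case, so these values do not show how clustering depends on scale. The 214 other genes of these 8 blocks had a median ratio of 0.993, with quartiles of 0.894 and 1.05. Taking the members out removes genes with low ratios, so a median near 1 among the rest follows in part from the choice. Their first quartile was below the 0.952 of all genes in the CPM range. With the genes of the table ordered by ID number, 50 members, or 17.8%, had a member directly before or after them, against 2.95% of the 10480 other genes in the range.

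Genes too scarce for the rule were examined in the same block of numbers. Among genes with means from 1 to under 5 CPM, 22 of 98 numbered from 14000 to 15999, or 22.4%, had a ratio from 0.40 to 0.75, against 224 of 2548 with other numbers, or 8.79%. The inverse ratio fell in that interval for 8 of the 98, or 8.16%, and for 155 of the 2548, or 6.08%. The 98 genes had a median ratio of 0.935, with quartiles of 0.785 and 1.13, and the 2548 one of 0.987, with quartiles of 0.873 and 1.11. By this same measure, the 55 such genes directly next to a member in the order of ID numbers had a median of 0.962. Their quartiles were 0.821 and 1.14. For the 2591 not next to a member the median was 0.986, with quartiles of 0.871 and 1.11. These genes were not chosen by their ratio, but the block of numbers was chosen after the members were known and no test is given. The sources used here do not say what adjacent numbers stand for.

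**Figure D4:**
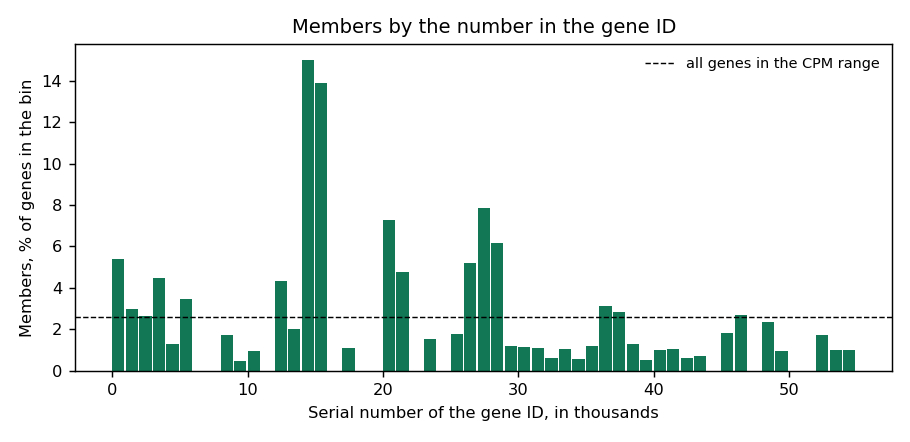
Members as a percent of genes in the CPM range, in blocks of 1000 serial numbers of the gene ID (blocks with at least 50 such genes); the dashed line marks the 2.61% of all genes in the range. The blocks from 14000 and 15000 hold 15.0% and 13.9% members, and several blocks hold none.

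The feed groups were then compared for the members. The sets of birds were unequally shared between the groups, with 3 of 5 control birds but 1 of 5 avilamycin birds among the 4. A comparison of the groups alone therefore repeats in part the contrast by which the members were chosen. With group as the only term, 280 of the 281 members had higher values in avilamycin birds, with a median log2 fold change of 0.27 and quartiles of 0.19 and 0.34. Over all 15516 genes tested in the same fit, 49.9% had higher values and the median was 0.00. No member passed the threshold of 0.05 in edgeR's quasi-likelihood test with Benjamini-Hochberg adjustment over all genes, and 20, or 7.12%, had an unadjusted p under 0.05, all of them higher, against 11.1% of all genes tested, 828 higher and 893 lower.

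With the set of birds in the model, so that the groups were compared among birds of the same set, the shift was much smaller. Higher values in avilamycin birds were found for 163 members, or 58.0%, and lower values for 118. The median log2 fold change was 0.01, with quartiles of -0.04 and 0.08, and the extremes were -0.27 and 0.47. Over all genes tested the median was -0.003, and 49.2% had higher values. The median standard error on the log2 scale was 0.08 for members and 0.14 for all genes tested. A difference smaller than its own standard error was found for 173 of the 281 members. The same held for 8992 of the 15516 genes tested and for 5915 of the 10465 other tested genes in the CPM range. The demand for separation favours little spread inside a set, so small differences here follow in part from the choice of members.

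**Figure D5:**
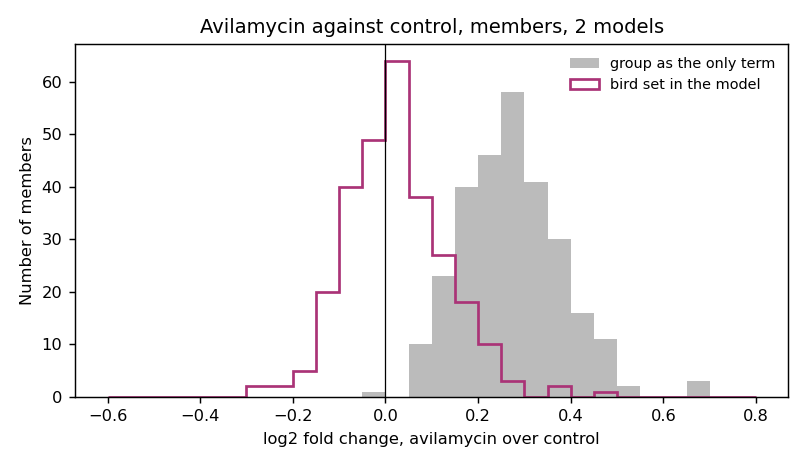
Number of members by log2 fold change between avilamycin and control birds, in steps of 0.05, from a model with group as the only term (filled) and from one that also holds the set of birds (line). The median is 0.27 in the first and 0.01 in the second.

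Within the sets the groups were compared gene by gene. In edgeR's quasi-likelihood test 0 of 281 members had an adjusted p under 0.05, against 1 of 15516 genes, or 0.00644%. At an unadjusted p under 0.05 there were 18 members, or 6.41%, 14 higher and 4 lower in avilamycin birds, against 9.18% of all genes tested, 5.18% higher and 4.01% lower. The share of members was thus not above that of all genes, nor above the 10.2% of the other tested genes in the CPM range. The rule favours genes that vary little inside a set, so it may itself lower this share. No conclusion about the feed is drawn from it. DESeq2 called 1 member among 114 of 21452 genes (0.531%), and limma voom called 0 of either. At an unadjusted p under 0.05 DESeq2 had 18 members, or 6.41%, against 7.87% of all genes, and voom 17, or 6.05%, against 9.33%. Without avilamycin bird D7, 5 members, or 1.78%, and 659 genes, or 4.20%, had such a p in edgeR. D7 was the only avilamycin bird among the 4, so that fit compared the groups only among the 6. The 1 gene called, ENSGALG00000031164, was no member and is named because it was the only one (log2 fold change -2.45 ± 0.26, SE, edgeR adjusted p = 0.0299). It was not called without A7, D2, D4, D5 or D7, which gave 0 calls each, while omission of A6 gave 2 calls.

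A separation of the groups inside both sets was found for members at shares near those of all genes in the CPM range. For 12 members, or 4.27%, D7 lay above A4, A6 and A7, and D2, D3, D4 and D5 all lay above A3 and A5, against 3.35% of the genes in the CPM range. The reverse order held for 7 members, or 2.49%, against 2.63%.

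ENSGALG00000015663 had the smallest p among members with higher values in avilamycin birds. It was at 31.0 CPM in A4, 26.4 CPM in A6 and 26.1 CPM in A7, and at 48.8 CPM in D7. Among the 6, control birds A3 and A5 had 57.1 and 51.0 CPM, and avilamycin birds D2, D3, D4 and D5 had 68.0, 60.6, 61.2 and 66.7 CPM. The avilamycin birds thus lay above the control birds of their own set in every case, and D7 stood nearly at the level of A5. The log2 fold change within sets was 0.47 ± 0.11 (SE), with an adjusted p of 0.364 in edgeR's quasi-likelihood test and of 0.0435 in DESeq2, where it was the only member called. Over all alternatives the adjusted p ran from 0.0435 to 0.999. Without D7, which left the groups compared only among the 6, the log2 fold change was 0.24.

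ENSGALG00000014984 was the next of these. Among the 4 birds it was at 69.9 CPM in A4, 62.2 CPM in A6, 69.7 CPM in A7 and 77.1 CPM in D7. Among the 6 it was at 90.0 CPM in A3 and 88.1 CPM in A5, and at 111 CPM in D2, 106 CPM in D3, 95.2 CPM in D4 and 107 CPM in D5. The groups did not overlap inside either set. Within sets the log2 difference was 0.23 ± 0.06 (SE), at an adjusted p of 0.376 in edgeR.

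The 2 members with the smallest p for lower values were without overlap between the groups inside both sets. Members named by their p were picked on this comparison, so their separation by group follows largely from the choice. Among the 4 birds it rests on D7 alone. ENSGALG00000003688 was at 40.2 CPM in D7, below the 43.9 to 47.7 CPM of A4, A6 and A7, and at 70.1 to 75.3 CPM in D2, D3, D4 and D5, below the 77.9 CPM of A3 and the 79.4 CPM of A5. Its log2 fold change within sets was -0.13 ± 0.05 (SE, adjusted p of 0.499 in edgeR), whereas with group as the only term the sign was positive, at 0.17. ENSGALG00000046863 was at 3.53 CPM in D7 and 4.62 to 4.86 CPM in the control birds of that set, and at 5.60 to 6.07 CPM in D2 to D5 against 6.52 CPM in A3 and 6.70 CPM in A5. The log2 difference within sets was -0.25 ± 0.10 (SE), at an adjusted p of 0.512 in edgeR. The members with the highest means had log2 differences of 0.03 ± 0.07 for ENSGALG00000015082 and 0.04 ± 0.06 for ENSGALG00000015083 (SE; adjusted p of 0.934 and 0.909 in edgeR).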

How the data were processed

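Ileal RNA of 10 birds was measured in 20 libraries. The authors deposited raw read counts per gene, whole numbers with 14079936 to 26708365 per library. Trimmomatic 0.36, STAR, SAMtools 1.7, HTSeq 0.6.1 and DESeq2 are named in the submitters' processing notes, with no role or order. The notes name the build galGal5 and the table's name gives GRCg6a, so no coordinates are printed. No source used here says whether counting used strand, which leaves overlapping genes and gene families uncertain. A deposited list of changed genes held the same bytes as the count table and was set aside. The reference gene table (assembly GRCg7b, 25635 genes) matched 0 IDs.

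Sequencing took 2 runs, but the labels do not tie libraries to them, so the part of the run was not tested. The 2 libraries of a bird were summed. CPM are of total counts. Groups were compared with edgeR 4.0.16 (R 4.3.3; filterByExpr, which left 15516 genes, TMM, quasi-likelihood test, Benjamini-Hochberg adjustment over all genes), with the set of birds as covariate. The set was itself read from these data, and its coefficient was not tested. Standard errors derive from the F statistic. Alternatives included DESeq2 1.42.0 and limma 3.58.1 voom. The fits were tested on simulated data. Members and lists were chosen with earlier results of these data known. Named are the 2 members with the highest mean CPM and, by smallest p, 2 in each direction; gene lists and cell type markers could not be matched. Intervals and SDs cover these birds only, and nothing in the labels describes how birds were housed.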

Additional observations from a re-analysis of the deposited data

Results flagged for a closer look

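Avilamycin bird D2 stood apart from the other 5 birds of its set in the level of the members. Its summed level was 17144 CPM, and the gap to the next highest bird was 0.705 of the range of the 6. The median member stood at 1.05 times its mean in the 6 birds in D2, a gap of 0.653 of the range. Both values describe the same members and count as 1 pattern. In all, 8 sets of values were examined, and about 1 in 20 sets of unselected values would hold such a value by chance. The members were chosen on these same counts, so that rate need not hold here and nothing is concluded from it. Without D2 the rule gave 278 genes, 269 of them members, and the median ratio of the members was 0.629.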

How the results depend on the processing

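The rule gave 281 genes. TMM scaling gave 282 genes, DESeq2 size factors 280, a minimum of 10 CPM 243, a minimum of 1 CPM 325, any ratio under 1 357, and omission of 1 bird 274 to 317 (median ratio 0.614 to 0.630). The alternatives for the summed level and the unblocked fit of 8 birds were added after the data were seen; the ratio of summed levels stayed from 0.624 to 0.641. Genes called between the groups were 1 in the main comparison, 114 in DESeq2, and 0 in voom, with group as the only term and in the 6 birds alone. Without 1 bird they were 0 to 2, and members called were 0 to 0. DESeq2 called 1 member. In the 6 birds alone 10 members (3.56%) and 777 genes (4.86%) had an unadjusted p under 0.05.

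Numbers 3, 4, 5 and 7 name a bird in each group. Deviations from the group means correlated by -0.034 to 0.083 within such pairs, so the number was not taken as a pairing. With it as a replicate block there were 0 calls, and 3 members (1.07%) had an unadjusted p under 0.05, against 6.23% of all genes. That fit holds more terms on fewer birds and so has less precision, which its lower shares may reflect. The same 8 birds unblocked gave 1 call and 17 members (6.05%), against 10.3% of all genes. The gene called there had higher values in avilamycin birds, whereas the gene called in the main comparison had lower values. The log2 fold change of ENSGALG00000015082 turned to -0.012 with the second library alone and ran from -0.00084 to 0.058 without 1 bird. That of ENSGALG00000015083 ran from -0.011 to 0.095 without 1 bird. That of ENSGALG00000003688 was 0.17 with group as the only term and -0.15 to -0.12 without 1 bird. The causes were not tested. With 5 birds per group and 1 avilamycin bird among the 4, precision is limited, and log2 differences of 0.47 ± 0.11 and 0.23 ± 0.06 (SE) were not called in edgeR.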
